A study of Mus musculus with 22 samples.

Results

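MHC class I molecules carry peptides from inside the cell to its surface, where CD8 T cells read them. The expression of 10 genes of that pathway was examined in inguinal/mammary adipose tissue (IWAT) of tumor-bearing mice. The genes were chosen by symbol from a named pathway: the heavy chains H2-K1 and H2-D1, the light chain B2m, the peptide transporter genes Tap1 and Tap2, the loading chaperone Tapbp (tapasin), the immunoproteasome subunits Psmb8, Psmb9 and Psmb10, and the transactivator Nlrc5. All 10 were among the 23420 gene symbols of the count table, and all 10 passed the filter on low counts that left 14458 genes for testing.

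The libraries came from 11 female wildtype C57Bl/6 mice, with 2 libraries per mouse and 22 in all. The lean group was 5 mice on regular chow and the obese group 6 mice on a high fat diet (HFD) with 60% of energy from fat, both for 16 weeks. At about 20 weeks of age each mouse received E0771 cells, a breast cancer line from a C57Bl/6 mouse, in PBS and Matrigel into the left pad (tumor-associated IWAT) and PBS with Matrigel alone into the right pad (control IWAT), and both were taken 2 weeks later. Every control pad thus belonged to a tumor-bearing animal. The inguinal lymph node and the adipose sheet over the tumor had been removed, and the outermost IWAT was also left out of the sequenced tissue. Host and E0771 cells share a strain background, so their reads cannot be told apart, and in whole tissue a change in cell number cannot be told apart from a change in RNA per cell.

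In the pathway, proteasomes cut proteins into peptides, and the immunoproteasome subunits replace the constitutive catalytic subunits Psmb5, Psmb6 and Psmb7 when interferon is present. The transporter formed by Tap1 and Tap2 moves the peptides into the endoplasmic reticulum, where tapasin, calreticulin (Calr) and Pdia3 help to load them onto a heavy chain bound to B2m. Interferon acts on these genes through induced transcription factors, and Nlrc5 is a coactivator that works at class I promoters. Nearly all nucleated cells carry class I molecules, and leukocytes usually carry more than adipocytes.

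On the mouse assembly GRCm38, the assembly of the mm10 build used by the authors, 7 of the 10 genes lie in the MHC on chromosome 17. Tapbp is at chr17:33915899-33929292 and H2-K1 at chr17:33996017-34000347, while H2-D1 lies farther along at chr17:35262730-35267499. Between them is a compact block with Psmb9 (chr17:34181987-34187764), Tap1 (chr17:34187553-34197225), Psmb8 (chr17:34197721-34201454) and Tap2 (chr17:34203527-34216321). Outside the MHC, B2m is at chr2:122147686-122153083, Psmb10 at chr8:105935735-105938444 and Nlrc5 at chr8:94434356-94527272 (all from GENCODE). Psmb9 and Tap1 point away from each other, and in GENCODE they overlap at their starts.

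The following promoter stretches show what the 2 heavy chains, the light chain and the Tap1 and Psmb9 pair share and do not share in front of their starts. They come from RefSeq on GRCm38.p6 and run 5′ to 3′ along each gene's own strand. Starts here are those of RefSeq, which differ from the GENCODE positions above for some genes. The H2-D1 stretch lies inside the gene as placed by GENCODE, and by the RefSeq starts used here Psmb9 and Tap1 do not overlap. Capitals mark the NF-kB site GGGATTCCC, the interferon response element core GAAANNGAA and the X2 or cAMP element core TGACG, searched on both strands without overlap in the printed stretches.
H2-K1 (chr17:34000348-34000467, minus strand, ending at the start): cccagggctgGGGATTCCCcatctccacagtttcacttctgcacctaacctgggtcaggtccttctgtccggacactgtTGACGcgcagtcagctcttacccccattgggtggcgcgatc
H2-D1 (chr17:35262914-35263033, plus strand, from 180 to 61 bases before the start): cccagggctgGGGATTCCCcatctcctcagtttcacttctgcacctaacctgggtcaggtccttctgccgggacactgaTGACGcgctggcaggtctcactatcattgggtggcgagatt
B2m (chr2:122147538-122147686, plus strand, ending at the start): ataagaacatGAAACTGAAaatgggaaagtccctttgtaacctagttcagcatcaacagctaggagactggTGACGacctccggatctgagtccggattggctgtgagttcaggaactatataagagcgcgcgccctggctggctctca
Tap1 (chr17:34187331-34187555, plus strand, from the RefSeq start of Psmb9 to that of Tap1): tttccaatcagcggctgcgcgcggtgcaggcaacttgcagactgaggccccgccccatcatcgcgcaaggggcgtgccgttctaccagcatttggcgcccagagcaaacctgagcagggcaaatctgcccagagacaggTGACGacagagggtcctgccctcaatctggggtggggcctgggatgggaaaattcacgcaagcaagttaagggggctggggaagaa

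The heavy chain stretches, both cut to begin at the same distance before the NF-kB site, were identical at 107 of 120 bases (89.2%). The NF-kB site thus shares its place by construction, and the TGACG core lay at the same distance from it in both. Counted from the starts, the NF-kB site lay 110 bases before that of H2-K1 and 170 before that of H2-D1. RefSeq promoter windows of 250 bases were at hand for 8 of the 10 genes, among them Tapbp, Psmb8, Psmb9 and Psmb10. Tap2 and Nlrc5 had none. The windows of H2-D1, Tapbp, Psmb8 and Psmb9 lie inside the genes as placed by GENCODE, and that of Psmb10 does in part. The NF-kB site was in 2 of the 8 (H2-K1 and H2-D1) and in 0.301% of the 32851 promoters of that length. The TGACG core was in 5 of the 8 (H2-K1, H2-D1, B2m, Tap1 and Psmb9) and in 17.8% of all promoters. GAAANNGAA was found in B2m alone among the 8 and in 7.13% of all. Only this order of letters was searched, so related forms of the interferon element were not counted. Both heavy chain stretches hold agtttcacttct after the NF-kB site, which that search could not match. Whether these letters form an interferon element was not tested. The gamma activated site TTCNNNGAA was found in Psmb8 alone and in 7.02% of all. CCAAT was in 6 of the 8 and in 33.8% of all. Such matches are letters in a window and carry no measure of binding.

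Gene counts summed to 5759775 in the shallowest and 8598108 in the deepest library, and the lowest count of any of the 10 genes in a library was 91 (Psmb9 in lean control IWAT). Expression is given as CPM, the count scaled by the TMM-normalized library total. Marker genes of adipocytes were present in every library, with a summed level of 1724 to 22202 CPM over 8 genes. Summed macrophage genes were 687 to 1412 CPM in lean control, 1520.2 to 3308 CPM in lean tumor-associated, 1016 to 1456 CPM in obese control and 1526 to 4411 CPM in obese tumor-associated IWAT. Summed over 5 skeletal muscle genes, the control pad of obese mouse 1 held 2006 CPM, where the median of the 6 obese control pads was 50.8 CPM. A pair of libraries stood furthest apart in lymphoid genes. The obese control pads of mice 1 and 3 had 432 and 400.5 CPM of summed B cell genes and 173 and 178 CPM of summed CD8 T and NK cell genes, against 1.72 to 9.3 and 10.6 to 15.6 CPM in the other 4 obese control pads. The tumor-associated pad of obese mouse 3 held 101 CPM of summed B cell genes, where the others of its group held 2.03 to 4.01 CPM. Lean control mouse 2 held 48.5 CPM, where the other lean control pads held 1.53 to 6.5 CPM. Values without the control pads of obese mice 1 and 3, or without both pads of these mice, stand beside the obese results below. The former keep the tumor-associated pad of mouse 3.

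Per kilobase of annotated exon sequence, B2m was the most abundant of the 10 genes in lean control IWAT, with 1792 ± 115 CPM per kb (SD, n = 5). H2-K1 followed with 316 ± 21.6 CPM per kb, H2-D1 with 129.9 ± 6.7 and Tapbp with 57.8 ± 2.28 CPM per kb, each clear of its neighbours by more than the SD. Tap2 stood at 23.6 ± 2.51 CPM per kb. Psmb10 (18.3 ± 3.13), Psmb8 (17.4 ± 2.46), Nlrc5 (13.6 ± 2.64) and Tap1 (11.2 ± 2.45 CPM per kb) overlapped within their SDs from one to the next. Psmb9 was lowest at 5.85 ± 1.3 CPM per kb. The length joins the exons of all annotated transcripts, 3381 bases for Psmb8, 3660 for Psmb9 and 5476 for Tap1. Their protein-coding transcripts held only 1669, 1679 and 2997 distinct 50-base windows. The order of the genes below the first 4 thus depends on the length used. In obese tumor-associated IWAT the first 4 places were the same, at 2146 ± 392, 322 ± 99.3, 163 ± 25.4 and 73 ± 10.5 CPM per kb (SD, n = 6). There, Psmb10, Psmb8, Tap1, Nlrc5 and Tap2 lay between 25.4 and 30.6 CPM per kb with overlapping SDs.

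**Figure D1:**
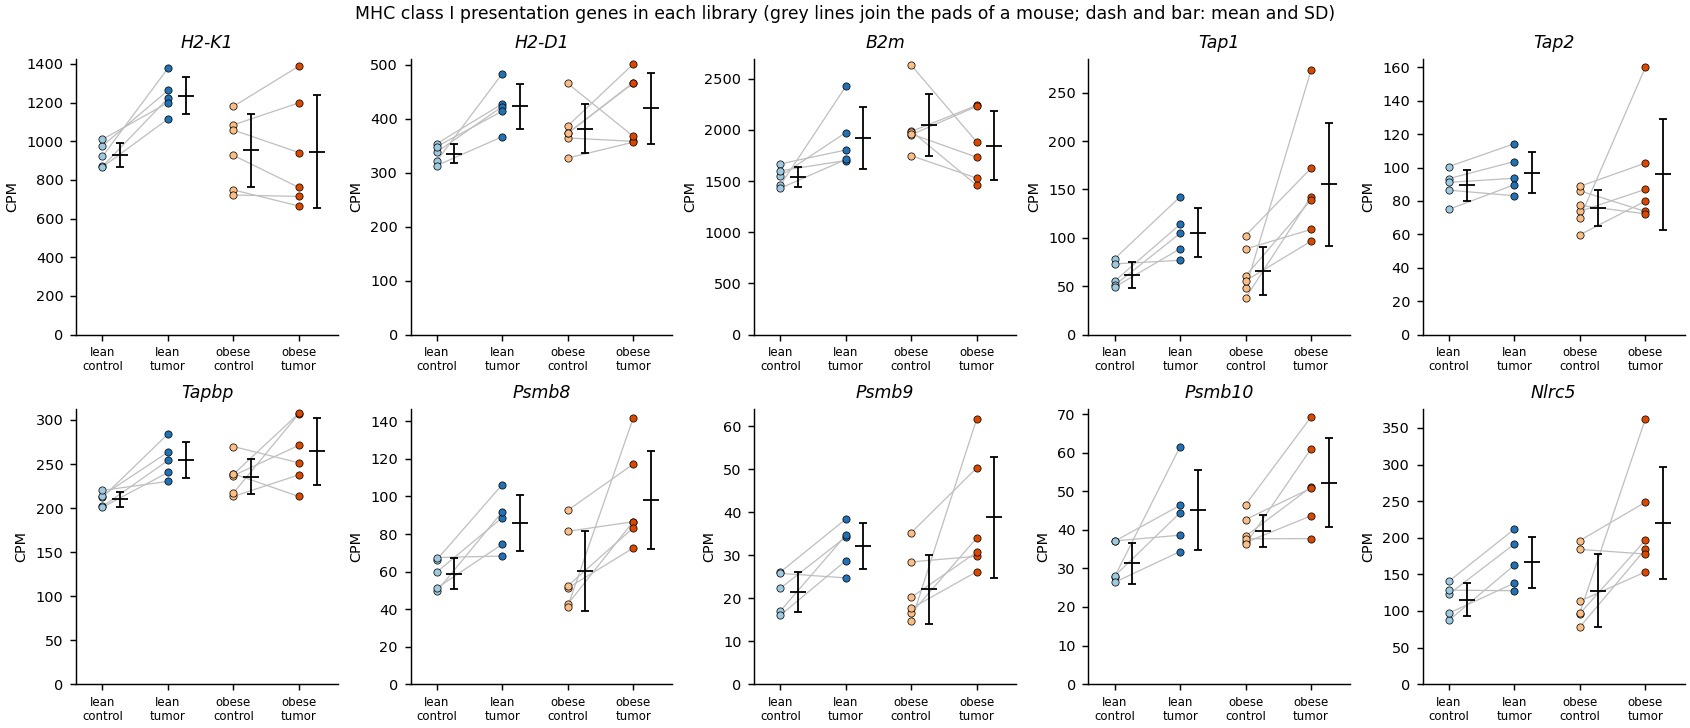
Expression (CPM, linear axis from 0) of the 10 class I presentation genes in each of the 22 libraries, with 5 lean and 6 obese mice per pad; grey lines join the pads of a mouse, and the dash and bar are the mean and SD. H2-K1, H2-D1 and B2m were higher in the tumor-associated pad of 5 of 5 lean mice but in only 2, 4 and 2 of 6 obese mice, whereas Tap1 was higher in all mice of both groups.

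The first comparison was of tumor-associated with control IWAT in lean mice. All 10 genes had positive log2 fold changes, from 0.12 for Tap2 to 0.78 for Tap1, with a median of 0.47, where the median over all tested genes was 0.01. None of the 10 passed edgeR's adjusted test, which called 4.18% of all genes tested (3.27% higher and 0.913% lower). With upper-quartile normalization the all-gene split was 382 higher and 199 lower, in place of 473 and 132. At an unadjusted p under 0.05 there were 8 of the 10 (not Tap2 or Nlrc5), against 16.1% of all genes, and DESeq2 called 0, against 6.48% of all genes. The all-gene count of 605 was sensitive to single libraries, from 183 without lean tumor-associated mouse 2 to 952 without obese tumor-associated mouse 4.

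The heavy and light chains had similar log2 fold changes at different levels. H2-K1 was 976, 921, 869.6, 866 and 1009 CPM in the control pads of lean mice 0, 2, 3, 6 and 9, and 1263, 1377, 1222, 1115 and 1199 CPM in their tumor-associated pads. The lowest tumor-associated pad was above the highest control pad, and the log2 fold change was 0.41 (SE 0.18, edgeR adjusted p = 0.246). H2-D1 was 354, 322, 338, 313 and 348 CPM in control and 428, 483, 423, 367 and 414 CPM in tumor-associated IWAT of the same mice. These groups did not overlap either, with a log2 fold change of 0.34 (SE 0.11, edgeR adjusted p = 0.102). B2m was 1668, 1458, 1549, 1601 and 1429.8 CPM in control and 1803, 2425, 1974, 1701 and 1711 CPM in tumor-associated IWAT. Every tumor-associated pad was again above every control pad, by 0.32 on the log2 scale (SE 0.14, edgeR adjusted p = 0.25). H2-K1 was the one gene of the 10 to pass with the mouse as a block (log2 fold change 0.41, edgeR adjusted p = 0.0472).

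Among the transporter genes, Tap1 was 55.3, 78.4, 51, 49.1 and 73.1 CPM in control and 114, 142, 105, 88.7 and 76.8 CPM in tumor-associated IWAT of lean mice 0, 2, 3, 6 and 9. It was higher in 5 of 5 mice, but the pads of mouse 9 differed by 0.07 (log2) where those of the other 4 differed by 0.85 to 1.04. Its log2 fold change was 0.78 (SE 0.28, edgeR adjusted p = 0.134). Tap2, which supplies the other chain of the transporter, was 89.3 ± 9.5 CPM in control and 96.8 ± 12.2 CPM in tumor-associated IWAT (SD, n = 5), and the groups overlapped. Tapbp was between 201 and 220.0 CPM in control and between 230.3 and 284 CPM in tumor-associated IWAT, without overlap (log2 fold change 0.28, SE 0.10, edgeR adjusted p = 0.122).

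Among the immunoproteasome subunits, Psmb10 had the smallest adjusted p of the 10, with 37, 27.8, 28, 26.4 and 37.1 CPM in control and 46.3, 61.6, 44.4, 34.4 and 38.6 CPM in tumor-associated IWAT. It was higher in 5 of 5 mice (log2 fold change 0.52, SE 0.16, edgeR adjusted p = 0.081), although 1 tumor-associated pad lay within the control range. Without that pad (lean tumor-associated mouse 6), the lowest of its group, Psmb10 passed with 0.61, a value that the removal raises by construction. With libraries or mice left out one at a time the value ran from 0.33 to 0.64, and 1 of 43 alternatives gave a call. Psmb8 was 0.55 higher (log2, SE 0.22) without overlap, Psmb9 0.58 higher (SE 0.25) and Nlrc5 0.53 higher (SE 0.26), the last 2 in 4 of 5 mice and with overlapping groups. In all, 5 of the 10 genes were apart in the direction of the tumor-associated pad (H2-K1, H2-D1, B2m, Tapbp and Psmb8), as were 5.33% of all tested genes. A fit to the 10 lean libraries alone called 5 of the 10 genes where the fit to all 22 called none; in that fit 10.5% of all genes were called.

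Lean mouse 9 had the lowest log2 difference between pads of the 5 lean mice for all of the 10 genes but H2-D1 and B2m. The values were 0.25 for H2-K1, 0.07 for Tap1, -0.06 for Tap2, 0.07 for Tapbp, 0.02 for Psmb8, -0.06 for Psmb9, 0.06 for Psmb10 and -0.01 for Nlrc5. Its summed macrophage genes were 1412 CPM in the control and 2106 CPM in the tumor-associated pad, the highest of the 5 lean control pads and the second lowest of the tumor-associated pads. The part of macrophage number in these values was not tested.

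In obese mice, the share of the 10 genes that was called lay near that of all genes, and the heavy and light chains did not pass the test. edgeR called 5 of the 10 genes higher (Tap1, Psmb9, Nlrc5, Psmb8 and Psmb10) and none lower, where 54.5% of all genes were called, 26.8% higher and 27.7% lower. None of the 10 was apart between the pads of obese mice, against 9.95% of all genes apart in the higher direction. An unadjusted p under 0.05 was reached by 60.3% of all genes, and DESeq2 called 51.8%. The median log2 fold change of the 10 was 0.37, with -0.02 over all tested genes.

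Tap1 had the largest change of the 10. It ranged from 37.7 to 102 CPM (median 58.1) in obese control and from 96.5 to 273 CPM (median 141) in obese tumor-associated IWAT. The groups overlapped in that 1 control pad (mouse 3) exceeded the lowest tumor-associated pad (mouse 8), but each of the 6 mice had more Tap1 on the tumor side. The log2 fold change was 1.25 (SE 0.25, edgeR adjusted p = 0.000531), a 2.37-fold difference. Tap2 ranged from 59.7 to 88.7 CPM (median 75.5) in control and from 72.3 to 159.9 CPM (median 83.4) in tumor-associated IWAT. It was higher in 4 of 6 mice and was not called (log2 fold change 0.34, SE 0.16, edgeR adjusted p = 0.077). Tapbp had a log2 fold change of 0.17 (SE 0.09, edgeR adjusted p = 0.112).

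The 3 immunoproteasome subunits were each higher in 6 of 6 obese mice. Psmb9 was 14.6 to 35.2 CPM (median 18.9) in control and 26.2 to 61.7 CPM (median 32.4) in tumor-associated IWAT, a log2 fold change of 0.81 (SE 0.23, edgeR adjusted p = 0.00627). Psmb8 was 41.3 to 92.6 CPM (median 51.7) against 72.5 to 142 CPM (median 86.6), a log2 fold change of 0.70 (SE 0.20, edgeR adjusted p = 0.00574). Both groups overlapped through the control pads of mice 1 and 3, which were the highest of the 6 control pads. Psmb10 was 36.2 to 46.5 CPM (median 38) against 37.7 to 69.2 CPM (median 50.9), with a change near 0 in mouse 2. Its log2 fold change of 0.40 (SE 0.15, edgeR adjusted p = 0.0295) lost its call in 11 of 43 alternatives, with adjusted p up to 0.128, among them the fits without the control pad of mouse 0, 1, 2 or 4 or the tumor-associated pad of mouse 3 or 4.

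Nlrc5 was 78 to 196 CPM (median 105) in obese control and 153 to 362 CPM (median 191) in obese tumor-associated IWAT. It was higher in 5 of 6 mice, and mouse 1, whose control pad held 184 CPM, was 0.05 lower on the log2 scale on the tumor side. The log2 fold change was 0.79 (SE 0.23, edgeR adjusted p = 0.00787). With the control pads of mice 1 and 3 left out, the log2 fold changes were larger for Nlrc5 (1.18), Psmb9 (1.16), Psmb8 (1.05) and Tap1 (1.61), and 6 of the 10 genes were called higher (Tap2 as well, 0.44, edgeR adjusted p = 0.0471), in a fit that called 26.7% of all genes higher. For Nlrc5, Psmb9, Psmb8, Tap1 and Tap2 these pads were the highest of the obese control pads. Leaving them out thus raises those values by construction. Leaving out 1 tumor-associated pad also gave a call for Tapbp (mouse 0, 0.22) and for Tap2 (mouse 1, 0.40, or mouse 8, 0.41). For each gene these were the lowest tumor-associated pads of the obese mice, so the values rise by construction.

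At the other end of the pathway, H2-K1 was 722 to 1180.3 CPM (median 992) in obese control and 665 to 1388 CPM (median 851) in obese tumor-associated IWAT. The control range lay within the tumor-associated range, and 2 of 6 mice were higher on the tumor side (log2 fold change -0.01, SE 0.16, edgeR adjusted p = 0.952). B2m was 1748 to 2632 CPM (median 1972) in control and 1458 to 2239.7 CPM (median 1808) in tumor-associated IWAT, with a log2 fold change of -0.15 (SE 0.13, edgeR adjusted p = 0.333). Again only 2 of 6 mice were higher on the tumor side, and they were mice 1 and 3 for both genes. H2-D1 had a log2 fold change of 0.14 (SE 0.10, edgeR adjusted p = 0.262) and was higher in 4 of 6 mice. Without both pads of mice 1 and 3, B2m fell by 0.35 on the log2 scale and passed the test (edgeR adjusted p = 0.0481). As only these mice had more B2m on the tumor side, leaving them out lowers the value by construction.

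Mouse 4 stood apart among the obese mice. The tumor-associated pad of obese mouse 4 had the highest Tap1 (273 CPM), Tap2 (159.9 CPM), Psmb8 (142 CPM), Psmb9 (61.7 CPM) and Nlrc5 (362 CPM) of all 22 libraries, while its H2-K1 was 761 CPM. That library also had the lowest summed adipocyte genes (1724 CPM) of all libraries and the lowest summed macrophage genes (1526 CPM) of the obese tumor-associated libraries. Its summed CD8 T and NK cell genes were 75.9 CPM, where the 6 obese tumor-associated pads ranged from 24.8 to 81.8 CPM. Without both pads of mouse 4, Tap1 (log2 fold change 0.92, edgeR adjusted p = 0.00385) and Psmb8 (0.47, edgeR adjusted p = 0.0467) remained called, and Psmb9 (0.52, edgeR adjusted p = 0.053), Nlrc5 (0.51, edgeR adjusted p = 0.0645) and Psmb10 (0.31, edgeR adjusted p = 0.122) were not.

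**Figure D2:**
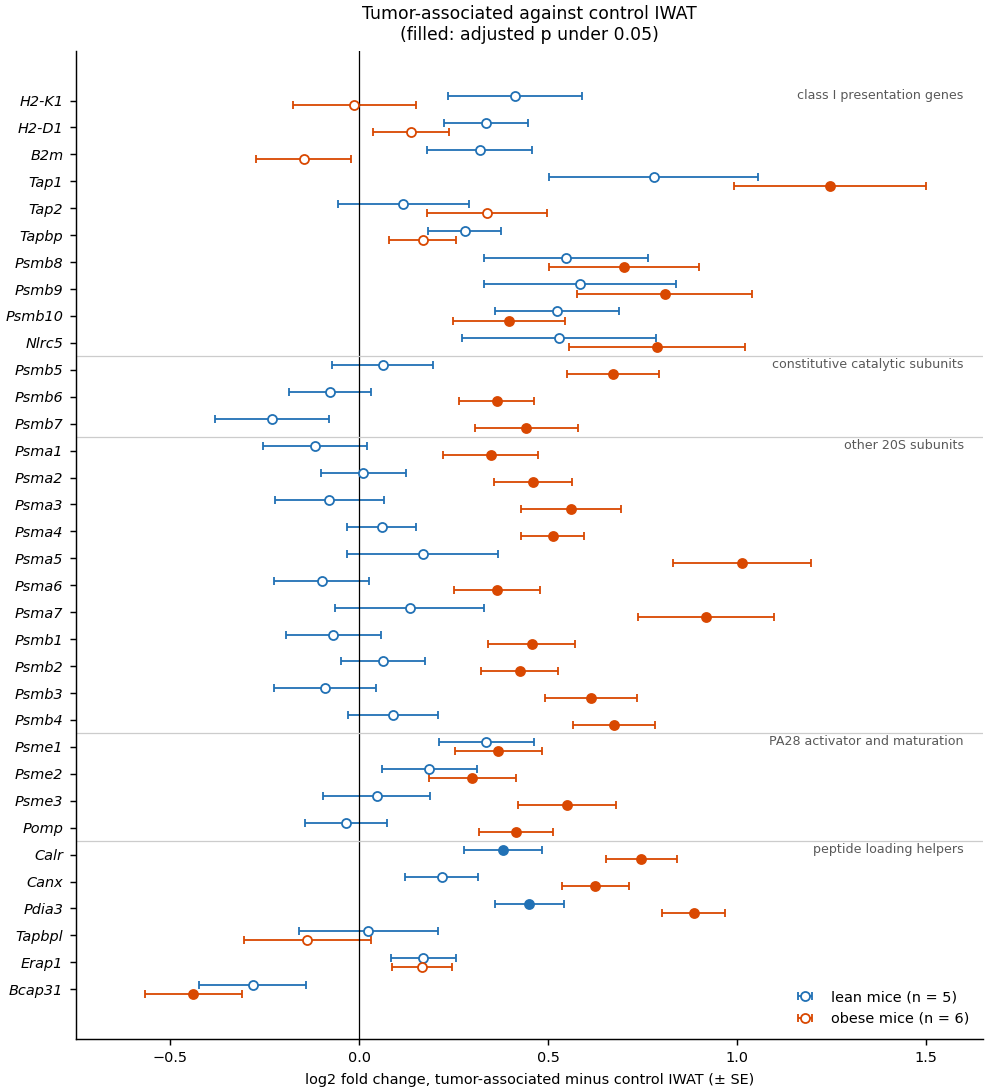
Log2 fold change (± SE) of tumor-associated minus control IWAT from edgeR for the 10 class I presentation genes and the other proteasome and peptide loading genes, in lean (blue, n = 5) and obese mice (orange, n = 6); filled points passed an adjusted p of 0.05. In lean mice the 10 genes lie right of 0 and the 20S subunits near 0, and in obese mice the 20S subunits lie between 0.35 and 1.01.

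The immunoproteasome is built on a common core, and the core genes were described in the same way. In lean mice, edgeR called 0 of 3 constitutive catalytic subunits and 0 of the 11 other 20S subunits (0 and 0 at an unadjusted p under 0.05, and 0 and 0 with DESeq2), with median log2 fold changes of -0.08 and 0.01. In obese mice, 3 of 3 and 11 of 11 were called higher, where 26.8% of all genes were called higher. The medians were 0.44 and 0.51, with a range over the 11 from 0.35 (Psma1) to 1.01 (Psma5). Psmb5, the subunit that Psmb8 replaces, rose from 16 ± 2.17 to 25.4 ± 3.36 CPM (SD, n = 6; log2 fold change 0.67, SE 0.12, edgeR adjusted p = 0.000208). Psmb6 and Psmb7, the counterparts of Psmb9 and Psmb10, rose by 0.36 (SE 0.10, edgeR adjusted p = 0.00472) and 0.44 (SE 0.14, edgeR adjusted p = 0.0105). All 3 were higher in 6 of 6 mice.

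Over 43 alternatives, 9 to 11 of the 11 other 20S subunits were called higher in obese mice, with 11 without both pads of mice 1 and 3 and 9 without their control pads alone. Of the 3 constitutive subunits, 1 was called without those control pads. The difference between the diets was itself called for 3 of the 11 (Psma4, Psmb3 and Psmb4, log2 differences of 0.45, 0.70 and 0.59, edgeR adjusted p from 0.0463 to 0.047) and for none of the 3 constitutive subunits, where 4.92% of all genes were called. All 11 and all 3 passed an unadjusted p under 0.05, against 32.9% of all genes, and DESeq2 called 9 and 3, against 15.9%. These 3 calls were lost in 27 to 29 of 42 alternatives, and the count over the 11 ran from 0 to 10. The activator genes Psme1, Psme2 and Psme3 and the assembly factor Pomp were all called higher in obese mice (0.30 to 0.55) and none was called in lean mice, where 1 of the 4 had an unadjusted p under 0.05 and DESeq2 called 0. Without the control pads of mice 1 and 3, the 4 obese values were 0.32 (Pomp) to 0.52 (Psme3) and all were still called.

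Ratios of counts within a library compared partner genes without library scaling. The Psmb8/Psmb5 ratio was 2.38 to 4.77 (median 3.44) in lean control and 3.63 to 5.98 (median 5.07) in lean tumor-associated IWAT, and 4 of 5 mice were higher on the tumor side. The obese values were 2.35 to 6.9 (median 2.94) in control and 2.66 to 5 (median 3.92) in tumor-associated IWAT, higher in 3 of 6. Neither change passed a two-sided exact permutation test (log2 difference 0.47, p = 0.125, adjusted over 30 tests p = 0.288 in lean, and 0.06, p = 0.844, adjusted p = 0.905 in obese mice). With 5 pairs this test gives no p below 0.0625, so the lean change could not have passed. The control pads of mice 1 and 3 had the highest obese ratios, 6.2 and 6.9, where the other 4 control pads were at 2.35 to 2.99. Without these mice the obese log2 difference was 0.35, positive in 3 of 4 (exact permutation p = 0.375, adjusted p = 0.511).

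For Psmb10 relative to Psmb7, the log2 ratio was higher on the tumor side in 5 of 5 lean mice, by 0.73 on average, and in 3 of 6 obese mice, with an average of -0.03. The difference of -0.77 between obese and lean mice had p = 0.00866 in the exact permutation test over 462 divisions of the mice, and 0.0812 adjusted over the 30 tests. For Psmb9/Psmb6 the changes were 0.66 in lean (4 of 5 mice) and 0.44 in obese mice (5 of 6), and the difference between them had an exact permutation p of 0.569 (adjusted p = 0.776). Without obese mice 1 and 3, the obese change was -0.17 for Psmb10/Psmb7 (positive in 1 of 4) and 0.77 for Psmb9/Psmb6 (4 of 4). The differences between the diets were then -0.90 for Psmb10/Psmb7 (exact permutation p = 0.0238, adjusted p = 0.102) and 0.11 for Psmb9/Psmb6, in place of -0.22 with all mice (exact permutation p = 0.77, adjusted p = 0.796).

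The Tap1/Tap2 ratio was higher on the tumor side in every animal. It was 0.507 to 0.86 in lean control and 0.916 to 1.52 in lean tumor-associated IWAT, and 0.632 to 1.15 in obese control and 1.33 to 1.78 in obese tumor-associated IWAT. Neither tumor-associated group overlapped its control group. The log2 ratio was 0.66 higher in lean mice (5 of 5, exact permutation p = 0.0625, the smallest that 5 pairs can give, adjusted p = 0.188) and 0.95 higher in obese mice (6 of 6, exact permutation p = 0.0312, the smallest that 6 pairs can give, adjusted p = 0.122). Within tumor-associated IWAT it was 0.57 higher in obese than in lean mice (exact permutation p = 0.00866, adjusted p = 0.0812). Without obese mice 1 and 3 these obese values were 1.17 (4 of 4) and 0.58.

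In the control pads, the ratios of both heavy chains to B2m were lower in obese mice by the unadjusted p only. H2-K1/B2m was 0.541 to 0.706 in lean control and 0.376 to 0.604 in obese control IWAT, with log2 means 0.38 apart (exact permutation p = 0.0325, adjusted p = 0.122). In tumor-associated IWAT the median was 0.656 in lean and 0.484 in obese mice, 0.37 apart (p = 0.0108, adjusted p = 0.0812, exact permutation test). H2-D1/B2m was 0.196 to 0.244 in lean control and 0.177 to 0.198 in obese control IWAT (log2 difference -0.22, exact permutation p = 0.00433, adjusted p = 0.0812). It was 0.29 higher on the tumor side of obese mice, in 6 of 6 (exact permutation p = 0.0312, adjusted p = 0.122). Without obese mice 1 and 3, the difference between the diets was -0.54 for H2-K1/B2m and -0.24 for H2-D1/B2m in the control pads and -0.48 for H2-K1/B2m in the tumor-associated pads, and H2-D1/B2m was 0.35 higher on the tumor side of obese mice (4 of 4). None of the 30 ratio tests passed after adjustment, with all mice or without these 2. The tests between the pads of lean mice could not have passed, as 5 pairs give no p below 0.0625. Nor could those between the pads of obese mice without these 2. There, changes positive in 4 of 4 mice had an exact permutation p of 0.125, the smallest that 4 pairs can give.

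**Figure D3:**
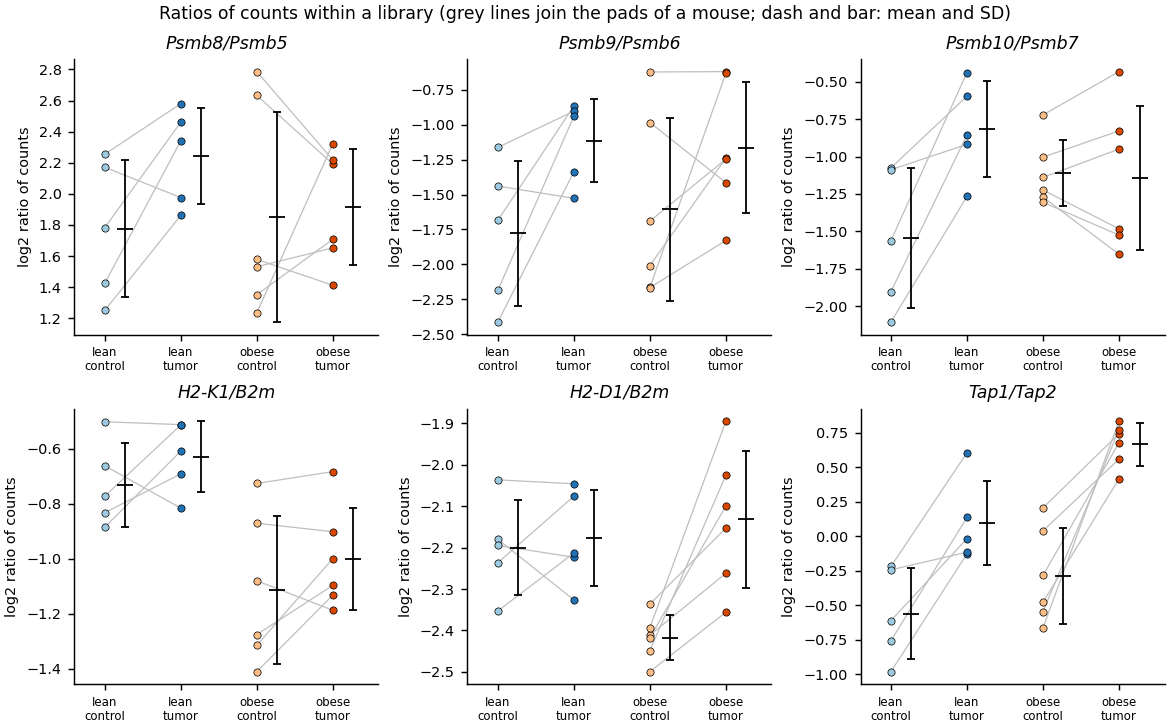
Log2 ratios of counts within each library, for immunoproteasome over constitutive subunits, heavy chain over light chain and Tap1 over Tap2, with 5 lean and 6 obese mice; grey lines join the pads of a mouse, and the dash and bar are the mean and SD. Tap1/Tap2 is higher on the tumor side of all 11 mice, and Psmb10/Psmb7 in all 5 lean mice but in 3 of 6 obese mice.

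The diets were first compared in the control pads. edgeR called 1 of the 10 genes, B2m, where 17.1% of all genes were called, 9.54% higher and 7.53% lower. With upper-quartile normalization the split was 1068 higher and 1446 lower, in place of 1380 and 1088, and B2m was not called. At an unadjusted p under 0.05 there were 2 of the 10, against 31.5% of all genes, and DESeq2 called 1, against 19.8% of all genes. B2m was 1429.8 to 1668 CPM (median 1549) in lean and 1748 to 2632 CPM (median 1972) in obese control IWAT. The groups did not overlap, as in 7.44% of all genes in that direction, and the log2 fold change was 0.41 (SE 0.13, edgeR adjusted p = 0.0405). The call was lost in 22 of 42 alternatives, among them each lean control pad left out in turn; over all 42 the value was between 0.32 and 0.45 and the adjusted p rose to at most 0.107. Psmb10 had a log2 fold change of 0.34 (SE 0.16, edgeR adjusted p = 0.141), and the other 8 genes lay between -0.23 (Tap2) and 0.19 (H2-D1).

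Small positive values of Tap1 (0.09), Psmb8 (0.04), Psmb9 (0.05) and Nlrc5 (0.15) in this diet comparison depended on obese control mice 1 and 3. Those pads held 184 and 196 CPM of Nlrc5, where the other 4 obese control pads held 78 to 113 CPM, and 28.4 and 35.2 CPM of Psmb9, where the others held 14.6 to 20.2 CPM. Without them the log2 values were -0.29 for Tap1, -0.34 for Psmb8, -0.32 for Psmb9 and -0.27 for Nlrc5, none of them called (edgeR adjusted p from 0.245 to 0.529). Of the 10 CD8 T and NK cell genes, edgeR called Cd8a and Cd8b1 higher in obese control IWAT, with 1.83 ± 1.01 (SD, n = 5) and 17.7 ± 26.2 CPM (SD, n = 6) of Cd8a in lean and obese mice. No gene of that list was called higher or lower in this comparison without the 2 pads. As these pads held the highest summed levels of that list, leaving them out lowers the values by construction. Whether the lymphoid genes of these pads account for their class I values was not tested.

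**Figure D4:**
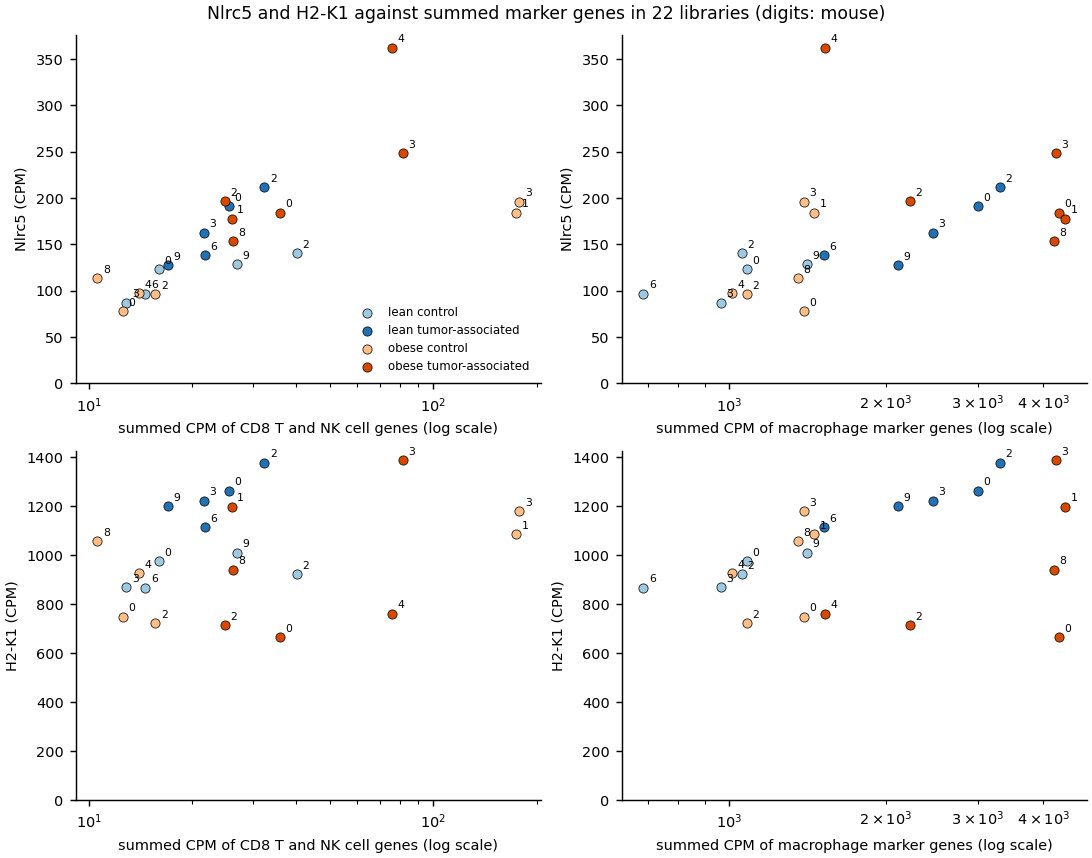
Nlrc5 and H2-K1 (CPM, linear axes from 0) against the summed CPM of 10 CD8 T and NK cell genes and of 8 macrophage genes (log axes) in the 22 libraries; digits give the mouse within its diet group. The control pads of obese mice 1 and 3 lie far right on the CD8 T and NK axis, and the tumor-associated pad of obese mouse 4 has the highest Nlrc5 (362 CPM) with macrophage genes of 1526 CPM.

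Between the tumor-associated pads of obese and lean mice, edgeR called 0 of the 10 genes, where 47% of all genes were called, 24.7% higher and 22.4% lower. At an unadjusted p under 0.05 there were 2, H2-K1 and Tap1, against 54.4% of all genes, and DESeq2 called 0, against 36.4%. H2-K1 was 1115 to 1377 CPM (median 1222) in lean and 665 to 1388 CPM (median 851) in obese tumor-associated IWAT, with 4 of the 6 obese pads below all lean pads. Its log2 fold change of -0.39 (SE 0.17) had an edgeR adjusted p of 0.0662. Tap1 went the other way, with 76.8 to 142 CPM (median 105) in lean and 96.5 to 273 CPM (median 141) in obese mice, a log2 fold change of 0.56 (SE 0.26, edgeR adjusted p = 0.0853).

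The obese mice differed among themselves here. H2-K1 of the tumor-associated pads was highest in mice 3 and 1 (1388 and 1198 CPM) and lowest in mouse 0 (665 CPM). Without both pads of mice 1 and 3, H2-K1 was 0.68 lower in obese than in lean mice (log2 value -0.68, edgeR adjusted p = 0.000371) and Tap1 was 0.64 higher (edgeR adjusted p = 0.0398), in a fit where 55.7% of all genes were called. As these mice held the highest H2-K1, leaving them out lowers that value by construction. The tumor-associated pad of mouse 1 did not stand apart in lymphoid genes (4.01 CPM of summed B cell and 26 CPM of summed CD8 T and NK cell genes). Leaving out the tumor-associated pad of mouse 1 (-0.47) or mouse 3 (-0.53) alone also gave a call for H2-K1, and that of mouse 1 (0.65) or mouse 8 (0.67) one for Tap1. These pads were the highest of the group for H2-K1 and the lowest for Tap1, so the values move this way by construction. H2-K1 was called with upper-quartile normalization too (-0.47, edgeR adjusted p = 0.0347). Summed epithelial genes were 951 to 1914 CPM in lean and 191 to 509.8 CPM in obese tumor-associated IWAT, with 7 of 7 called lower, and their part in these values was not tested.

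Whether the tumor change differs by diet was tested as the obese minus the lean change. edgeR called 0 of the 10 genes and 4.92% of all genes (2.58% higher and 2.34% lower; with library totals alone 282 higher and 398 lower, in place of 373 and 338), 1 of the 10 (B2m) had an unadjusted p under 0.05, against 32.9% of all genes, and DESeq2 called 0, against 15.9%. The all-gene count of 711 rested on single libraries: leaving out 1 of the 22 moved it by over 1.5 times in 19 cases, down to 1 without the tumor-associated pad of lean or obese mouse 0 and up to 3568 without that of obese mouse 1. B2m differed by -0.47 (log2, SE 0.19, edgeR adjusted p = 0.0985), H2-K1 by -0.42 (SE 0.24, edgeR adjusted p = 0.217) and Tap1 by 0.47 (SE 0.37, edgeR adjusted p = 0.385). A diet difference in the tumor change of the heavy and light chains was thus not shown with all 22 libraries. Without the tumor-associated pad of obese mouse 1, the highest of its group for B2m, B2m was called (-0.51, edgeR adjusted p = 0.0498). Without both pads of obese mice 1 and 3, B2m (-0.65, edgeR adjusted p = 0.0197) and H2-K1 (-0.58, edgeR adjusted p = 0.0231) were called, and so were 34.4% of all genes. As these were the only obese mice with more of both genes on the tumor side, leaving them out lowers both values by construction.

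Genes around the 10 gave further context. Of the peptide loading helpers, Pdia3 rose in both diets, from 262 ± 15.9 to 359 ± 40.1 CPM (SD, n = 5; log2 fold change 0.45, SE 0.09, edgeR adjusted p = 0.00708) in lean and from 253 ± 13 to 468 ± 52.4 CPM (SD, n = 6; 0.89, SE 0.08, edgeR adjusted p = 6.35e-07) in obese mice. Calr rose by 0.38 in lean (edgeR adjusted p = 0.0405, lost in 28 of 43 alternatives) and by 0.75 in obese mice (edgeR adjusted p = 9.15e-06). In all, 2 of 6 helpers were called higher in lean mice, and 3 higher (with Canx) and 1 lower (Bcap31) in obese mice. These chaperones also fold many other proteins. The Pdia3 change was 0.44 larger in obese mice (edgeR adjusted p = 0.0479, lost in 33 of 42 alternatives). Without the control pads of obese mice 1 and 3, the obese changes were 0.89 for Pdia3 and 0.75 for Calr, and both were called.

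Of 20 further class I genes in the H2 complex, 10 passed the filter. Many of them are near-identical copies, and reads that map to several places were not assigned to a gene, so their counts are uncertain. H2-T24 rose in lean (from 16.9 ± 4.4 to 53.8 ± 21.1 CPM, log2 fold change 1.67, SE 0.28, edgeR adjusted p = 0.0016) and in obese mice (from 24 ± 9.28 to 42.6 ± 8.98 CPM, 0.82, SE 0.25, edgeR adjusted p = 0.00896). In all, 2 of the 10 were called higher in obese mice (with H2-M3, 0.66) and 2 lower (H2-M2, -2.97, and H2-M9, -1.04). Without the control pads of mice 1 and 3, H2-T24 (1.20), H2-M3 (1.26) and H2-M9 (-1.25) were called and H2-M2 was not (-0.45, edgeR adjusted p = 0.546). H2-T23, whose product Qa-1 presents peptides to NK cell receptors, rose in lean mice from 108 ± 28.1 to 210.1 ± 51.8 CPM (log2 fold change 0.96, SE 0.24, edgeR adjusted p = 0.0266, lost in 9 of 43 alternatives). In obese mice it was 112 ± 25.5 and 132 ± 44.5 CPM (0.23, SE 0.22, edgeR adjusted p = 0.374), and 0.44 without the 2 control pads (edgeR adjusted p = 0.114). On the tumor side it was lower in obese mice (log2 value -0.67, edgeR adjusted p = 0.0193), 1 of 5 genes of that list called lower there and none called higher.

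Of the 4 other partners of B2m tested, 3 were called lower on the tumor side of obese mice, where 27.7% of all genes were called lower. Cd1d1, which presents lipids to NKT cells, fell from 229 ± 47 to 85.6 ± 49.2 CPM (SD, n = 6; log2 fold change -1.42, SE 0.31, edgeR adjusted p = 0.000956). Mr1 (-0.51) and Hfe (-0.67) also fell, and all 3 were still called without the control pads of mice 1 and 3 (-1.59, -0.61 and -0.81). Fcgrt was 0.19 higher (log2) and did not pass the test. In lean mice none of the 4 was called (1 at an unadjusted p under 0.05, and 0 with DESeq2). Adipocyte genes fell as well: 8 of 8 were called lower on the tumor side of obese mice with a median of -1.40, and 0 of 8 in lean mice with a median of -0.59 (1 at an unadjusted p under 0.05, and 0 with DESeq2). The part of adipocyte genes in the fall of the B2m partners was not tested.

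Among the regulators of the pathway, Ifng itself did not pass the filter on low counts. Stat2 rose by 1.34 in lean (SE 0.17, edgeR adjusted p = 0.000117) and by 1.43 in obese mice (SE 0.16, edgeR adjusted p = 2.31e-06), and Irf9 by 0.80 and 0.59. Ifngr2 was called higher in both diets as well (0.59 and 0.26, the latter lost in 27 of 43 alternatives). Also in obese mice, Socs1, a feedback inhibitor of cytokine signalling (1.19), and Irf2 (0.43, lost in 15 of 43 alternatives) were called higher, and Rfxap, Rfxank and Ifngr1 lower (-0.32, -0.41 and -0.59). Without the control pads of obese mice 1 and 3 each of these was still called, with 1.45 for Stat2, 0.68 for Irf9, 1.56 for Socs1 and 0.77 for Irf2. Irf1, a factor that binds interferon response elements, was not called in either (0.07 and 0.24).

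Genes of the cells that read class I molecules were few. The summed level of the 10 CD8 T and NK cell genes was 17 to 32.3 CPM in lean tumor-associated and 24.8 to 81.8 CPM in obese tumor-associated IWAT. Gzmb, a killing enzyme of these cells, rose from 1.21 ± 0.477 to 6.34 ± 5.25 CPM in obese mice (SD, n = 6; log2 fold change 2.37, SE 0.44, edgeR adjusted p = 0.000276) and was 0.898 ± 0.389 and 3.14 ± 0.969 CPM in lean mice (SD, n = 5; 1.77, SE 0.51, edgeR adjusted p = 0.0522). Cd8b1 was called lower in obese tumor-associated IWAT (-2.43, edgeR adjusted p = 0.0432), a call lost in 19 of 41 alternatives and reversed in sign in 2. Without the control pads of mice 1 and 3, 8 of the 10 genes were called higher on the tumor side, in a fit that called 26.7% of all genes higher. These pads were chosen after the marker levels were seen. They held the highest summed levels of these genes among the obese control pads, so leaving them out raises the values by construction. For lean mice edgeR called none of the 10, 1 had an unadjusted p under 0.05 and DESeq2 called 1. Macrophage genes, by contrast, were called higher for 7 of 8 in lean and 8 of 8 in obese mice, with median log2 fold changes of 1.43 and 1.62, and their part in the class I values was not tested.

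Across the 22 libraries the log2 CPM of the 10 genes was correlated to very different degrees. Tap1, Psmb8, Psmb9 and Nlrc5 were correlated with each other at r of 0.95 to 0.98. Psmb10 was at 0.74 to 0.77 with each of these 4 and Tap2 at 0.67 to 0.72. H2-D1 was close to Tapbp (r = 0.90) and Psmb10 (r = 0.85) and at 0.57 to 0.62 with the first 4. B2m was closest to H2-D1 (r = 0.75), while B2m against Tap1 gave 0.06 and H2-K1 against Tap1 gave 0.18. The median over the 45 pairs was 0.62, and 0.52 after the group means were taken out. These values share libraries, depth and group differences and are given as a description. Psmb9 and Tap1 also share exon sequence at their ends: 9.71% of the 50-base windows of Psmb9 occur in Tap1, and as the strand setting is not given, reads there may belong to either gene. For Tapbp, 22.4% of the windows occur in another gene, chiefly the antisense Gm19412, and for H2-D1 13.9%.

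**Figure D5:**
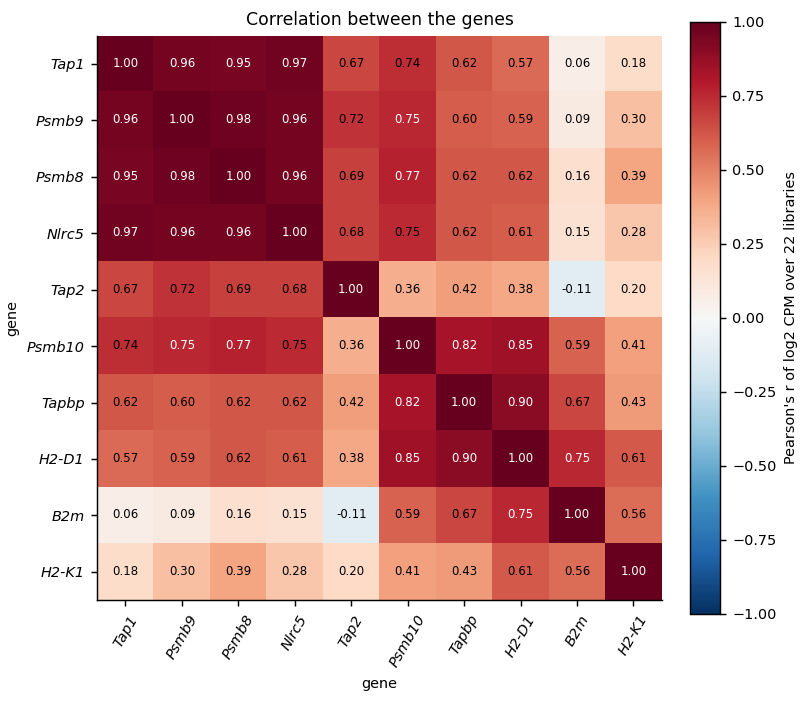
Pearson's r of log2 CPM between each pair of the 10 class I presentation genes over all 22 libraries (color scale from -1 to 1, with the value in each cell). Tap1, Psmb9, Psmb8 and Nlrc5 form a block at 0.95 to 0.98, and B2m and H2-K1 are only weakly correlated with them.

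Among the genes outside the 10 whose log2 CPM was most like the mean standardised level of the 10 were Tgtp2 (r = 0.91), Psme1 (r = 0.90), Ifi47 (r = 0.90) and Gbp5 (r = 0.88), each over 22 libraries. Tgtp2, Ifi47 and Gbp5 are GTPase genes known as interferon-inducible, and Psme1 encodes a subunit of the PA28 activator of the proteasome. With the group means taken out, their values were 0.83 to 0.87.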

How the data were processed

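RNA from 22 IWAT libraries was analysed, and every sample column was used. The authors depleted ribosomal RNA, used FastQC and prinseq on the reads, aligned to mm10 by STAR 2.4.0f and deposited raw HTSeq counts per gene symbol, without normalization; the annotation and strand setting are not given in the sources used here. Of the table, 5 lines of HTSeq totals name no gene and were left out; reads on no gene were 38.5% to 48.8% of its reads. Labels gave each library's diet, pad and mouse and name no batch. The titles of 3 libraries (obese control mice 1 and 3 and obese tumor-associated mouse 4) carry a "-2" that no source explains; the headers of all 22 count columns carry it too, and the mouse was taken as the number before it.

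Counts of all 22 libraries entered 1 fit of edgeR 4.0.16 (R 4.3.3; quasi-likelihood test, 4 groups, TMM, default filter on low counts, Benjamini-Hochberg adjustment, threshold 0.05). The authors' methods name DESeq2, tried here as version 1.42.0. Log2 CPM used a prior count of 2. SE is the log2 fold change over the root of F. Ratios had 0.5 added to both counts and used two-sided exact permutation tests over mice (scipy 1.17.1), adjusted over 30. Both pads come from 1 animal, which pairs them: deviations from group means correlated between pads of a mouse with a median of 0.508 in lean (5 of 5 over 0.1) and 0.168 in obese mice (4 of 6). Counts of libraries in a group differed by more than sampling noise (chi-square of at least 5.95 per degree of freedom). On simulated counts for 14458 genes, edgeR recovered 75 of 100 genes changed by 1 (log2) in lean and 81 of 100 in obese mice, and 48 of 100 for the difference. It made 4, 10 and 1 false calls. The simulated libraries held no pairing of pads, and changes smaller than 1 were not tried. The rates therefore do not cover the smaller changes of the 10 genes. Depth limits precision only through the counts given above.

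Named are the 10 genes, genes of the pathway and marker lists, and those of the 5 most alike genes; 1 item of these lists is not reported here. Members and lists were chosen with earlier results of these data known. Alternatives were DESeq2, 3 other scalings, no filter or at least 10 counts in every library, a mouse block, a fit to the groups compared only, each library or mouse left out, and, chosen after the marker levels were seen, obese mice 1 and 3 left out.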

Additional observations from a re-analysis of the deposited data

Results flagged for a closer look

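Each of the 10 genes and 6 ratios was examined in each group for a library far from the others. These were 64 groups of values, and chance alone gives such a gap in about 1 in 20. A library lay apart in 2 of the 64. B2m of obese control mouse 8 was 2632 CPM, with the next library at 1989 CPM (gap 0.727 of the range). Without that library, the B2m difference between obese and lean control IWAT was 0.32 (log2) and was not called. Tap2 of obese tumor-associated mouse 4 was 159.9 CPM, with the next library at 103 CPM (gap 0.654 of the range).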

How the results depend on the processing

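Of 2735 values recomputed under alternative settings, 2532 kept their direction and their side of the threshold (counts, stayed within 1.5 times) and 104 changed sign; where a call or a sign changed, the cause was not tested. Both pads of a mouse are paired, and with the replicate block edgeR called 1 of the 10 genes in lean mice (H2-K1), 5 in obese mice and 0 for the difference between the diets, so the pairing changed no call in the last 2. A fit to the groups compared called 5 in lean mice. In the control pads, 0 were called with upper-quartile normalization, without a filter on low counts, with at least 10 counts in every library and without obese control mice 1 and 3, in place of 1. Between the tumor-associated pads, 1 was called with upper-quartile normalization and 2 without both pads of obese mice 1 and 3, which also gave 2 for the difference between the diets. Leaving out 1 library or mouse at a time gave 0 to 1 calls in lean mice, 2 to 6 in obese mice, 0 to 1 in the control pads, 0 to 2 in the tumor-associated pads and 0 to 1 for the difference. Over all genes, the difference had 711 calls, 2364 with DESeq2, 18 without the filter, 4951 without both pads of mice 1 and 3 and 1 to 3568 with 1 library left out; lean mice had 605, 913 with DESeq2, 1437 in the fit to the groups compared and 183 to 952 with 1 library left out. Between the control pads there were 2468, and 1606 without lean control mouse 6.

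With upper-quartile normalization, log2 values changed sign for H2-K1 (-0.031), Psmb8 (-0.032) and Psmb9 (-0.020) between the control pads and for Tapbp (-0.036) between the tumor-associated pads. Without obese control mice 1 and 3, H2-K1 became 0.12 in obese mice, and between the control pads H2-K1 became -0.11, Tap1 -0.29, Psmb8 -0.34, Psmb9 -0.32 and Nlrc5 -0.27. Without both their pads these were -0.10, -0.28, -0.32, -0.31 and -0.25, and between the tumor-associated pads Tap2 became 0.052 and Tapbp -0.0050. Among the ratios without these mice, Psmb8/Psmb5 became -0.35 and Psmb9/Psmb6 -0.23 between the control pads, and Psmb9/Psmb6 0.11 for the difference between the diets. None of these values passed the test.

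Leaving out libraries or mice one at a time, values near 0 took both signs. In obese mice H2-K1 ran from -0.15 to 0.064. Between the control pads the ranges were -0.047 to 0.11 for H2-K1, -0.093 to 0.21 for Tap1, -0.14 to 0.12 for Psmb8, -0.15 to 0.14 for Psmb9 and -0.032 to 0.25 for Nlrc5. Between the tumor-associated pads they were -0.068 to 0.038 for H2-D1, -0.12 to 0.035 for B2m and -0.23 to 0.056 for Tap2. For the difference between the diets they were -0.0059 to 0.33 for Tap2, -0.065 to 0.33 for Psmb8, -0.048 to 0.42 for Psmb9, -0.25 to 0.051 for Psmb10 and -0.00098 to 0.45 for Nlrc5. Among the log2 ratios, Psmb8/Psmb5 ran from -0.14 to 0.19 in obese mice and from -0.11 to 0.20 between the control pads, and Psmb9/Psmb6 from -0.026 to 0.32 between the control and from -0.16 to 0.084 between the tumor-associated pads. Psmb10/Psmb7 ran from -0.10 to 0.035 in obese mice, H2-K1/B2m from -0.054 to 0.055 for the difference, and H2-D1/B2m from -0.011 to 0.065 in lean mice and from -0.00215 to 0.090 between the tumor-associated pads. Depth did not limit the 10 genes, whose counts were at least 91. It limited the CD8 T and NK cell genes, several of them at about 1 CPM.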
